A study of Mus musculus with 36 samples.

Results

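The expression of 10 genes of MHC class I presentation was followed by RNA sequencing in bone marrow-derived macrophages (BMDMs) that were stimulated with lipopolysaccharide (LPS) and treated with Core Circadian Modulator (CCM). The genes were named by symbol for their role in the pathway, with earlier results of these data known: H2-K1, H2-D1, B2m, Tap1, Tap2, Tapbp, Nlrc5, Psmb8, Psmb9 and Psmb10. All 10 were found among the 54532 genes of the count table, and all 10 passed the filter on low counts in every comparison. The BMDMs were grown for 7 days with MCSF from female C57BL/6 mice of 13 to 17 weeks. WT cells came from Bmal1 flox/flox littermates without Cre, and KO cells from LysM-Cre;Bmal1 flox/flox mice, in which Cre is expressed in myeloid cells; both genotypes therefore carry the floxed alleles. CCM is a small molecule that binds the PASB domain of BMAL1, the circadian transcription factor that the floxed gene encodes. Treatment lasted 6 h, with DMSO as vehicle, CCM at 100 µM, LPS at 100 nM, or both compounds together (LPS+CCM), with 3 WT and 6 KO replicates per treatment and 36 libraries in all. The labels number the replicates but do not say that a number marks 1 mouse, so the p-values measure the spread between these libraries. The design asks how LPS changes these genes, whether CCM alters them with and without LPS, and whether either response differs without Bmal1.

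MHC class I molecules display peptides from a cell's own proteins to CD8 T cells. The peptides are cut by the proteasome, in which the inducible catalytic subunits replace constitutive ones to form the immunoproteasome, pumped into the endoplasmic reticulum by the TAP transporter, and loaded with the help of tapasin onto a heavy chain paired with β2-microglobulin. The genes are known targets of interferon signalling, several of them also of the transactivator NLRC5, and macrophages stimulated through Toll-like receptors make type I interferon. H2-K1 and H2-D1 encode the classical heavy chains and B2m the light chain that both share. Tap1 and Tap2 encode the subunits of the TAP transporter, Tapbp encodes tapasin, and Nlrc5 the class I transactivator. Psmb8, Psmb9 and Psmb10 encode the inducible subunits that take the places of Psmb5, Psmb6 and Psmb7.

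On build GRCm38 (GENCODE vM21), 7 of the 10 genes lie on chromosome 17, within 1351601 bases from Tapbp to H2-D1. H2-K1 is at chr17:33996017-34000333 on the minus strand and H2-D1 at chr17:35262730-35267499 on the plus strand. Psmb9 (chr17:34181988-34187764, minus), Tap1 (chr17:34187553-34197225, plus), Psmb8 (chr17:34197721-34201454, plus) and Tap2 (chr17:34203527-34216321, plus) stand side by side in 34334 bases, and Tapbp is at chr17:33915899-33929288 on the plus strand. B2m (chr2:122147686-122153083, plus), Nlrc5 (chr8:94434356-94527272, plus) and Psmb10 (chr8:105935735-105938444, minus) lie outside this locus. The 5′ ends of Tap1 and Psmb9 overlap by 212 bases on opposite strands, and 3421 bases of Tapbp are shared with Zbtb22. Whether strand was used in counting is not given in the sources used here, and reads within such overlaps cannot be told apart. H2-K1 and H2-D1 have near-identical copies among the H2 genes, and how reads that match several genes were counted is likewise not given, so the split between heavy chains is uncertain.

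The start regions of 4 of these genes are shown because the members moved together under LPS and because the best known control elements of class I genes lie just before their starts. RefSeq (GRCm38.p6) holds a window of 250 bases before to 50 bases after the start for 8 of the 10 genes, all but Tap2 and Nlrc5. Capitals mark, on either strand, the interferon regulatory factor (IRF) core AANNGAAA, the NF-kB consensus and the CREB-type core TGACG of the X2 element, each 5′ to 3′ on the gene's strand:
H2-K1 (chr17:34000298-34000597, minus): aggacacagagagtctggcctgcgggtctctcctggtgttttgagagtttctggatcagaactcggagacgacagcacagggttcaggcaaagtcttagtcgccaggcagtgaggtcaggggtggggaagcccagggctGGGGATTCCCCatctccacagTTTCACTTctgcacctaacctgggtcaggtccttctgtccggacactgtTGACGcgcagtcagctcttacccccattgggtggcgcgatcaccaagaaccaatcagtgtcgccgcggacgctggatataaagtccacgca
H2-D1 (chr17:35262844-35263143, plus): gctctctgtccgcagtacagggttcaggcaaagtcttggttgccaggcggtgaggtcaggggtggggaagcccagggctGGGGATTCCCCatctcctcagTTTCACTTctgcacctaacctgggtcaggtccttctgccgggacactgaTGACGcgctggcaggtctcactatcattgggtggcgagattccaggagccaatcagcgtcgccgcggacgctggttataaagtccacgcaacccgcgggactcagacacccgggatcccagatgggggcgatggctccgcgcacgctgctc
B2m (chr2:122147437-122147736, plus): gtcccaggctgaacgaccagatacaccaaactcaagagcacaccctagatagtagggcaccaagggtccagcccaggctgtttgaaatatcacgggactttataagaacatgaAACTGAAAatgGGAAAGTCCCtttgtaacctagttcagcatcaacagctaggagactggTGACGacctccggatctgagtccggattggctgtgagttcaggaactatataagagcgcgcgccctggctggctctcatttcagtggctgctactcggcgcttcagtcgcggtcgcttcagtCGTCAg
Tap1 (chr17:34187306-34187605, plus): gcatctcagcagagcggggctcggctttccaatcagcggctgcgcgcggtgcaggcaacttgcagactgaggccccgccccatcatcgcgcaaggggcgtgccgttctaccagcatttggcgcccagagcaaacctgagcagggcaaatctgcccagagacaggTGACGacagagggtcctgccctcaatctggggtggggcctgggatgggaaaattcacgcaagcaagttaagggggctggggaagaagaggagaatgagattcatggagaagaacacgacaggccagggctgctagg

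The windows of H2-K1, H2-D1 and B2m each held all 3 elements, in the order NF-kB, IRF and TGACG in the heavy chains and IRF, NF-kB and TGACG in B2m. In H2-K1, for which RefSeq lists 2 windows and the one shown was used, the IRF core lay at positions -90 to -83 from the start and TGACG at -41 to -37. The H2-K1 and H2-D1 windows, aligned, were identical at 211 of 239 bases (88.28%). Of the 8 windows, 3 held the IRF core, against 23.94% of all 32544 promoter windows, 3 held the NF-kB consensus (4.529% of all) and 5 held TGACG (20.91% of all). TTCNNNGAA, the STAT-type element, was found only in Psmb8 (8.327% of all). The inverted CCAAT box ATTGG was in 6 windows (37.36% of all), and the E-box CACGTG, the sequence that BMAL1 and CLOCK bind, in that of Psmb10 alone (7.166% of all). In RefSeq the Tap1 and Psmb9 starts face away from each other 226 bases apart, whereas the GENCODE positions of the 2 genes overlap. Their windows share 275 bases, and the TGACG of Tap1 is also that of Psmb9. A match of letters is a description of the window and was not tested as a binding site.

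**Figure D1:**
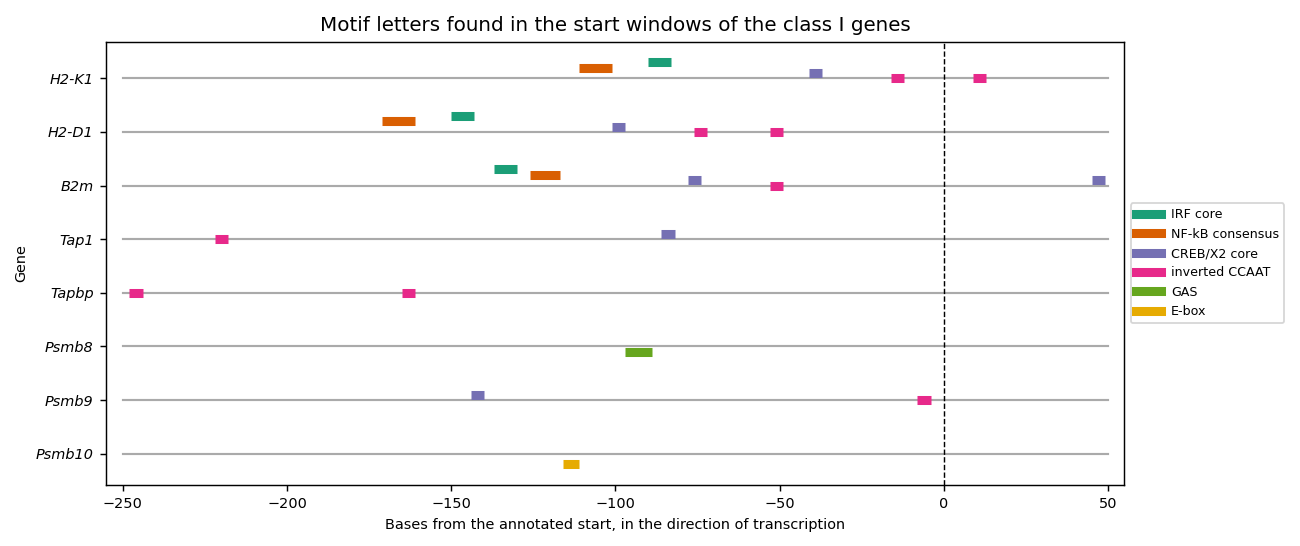
Positions of the searched letter patterns in the 8 promoter windows, as distance from the gene's start in bases (x axis) for each gene (y axis); bar colour gives the pattern (CREB/X2 core, TGACG; GAS, TTCNNNGAA), and the dashed line is the start. H2-K1, H2-D1 and B2m hold the IRF core, the NF-kB consensus and TGACG within the 250 bases before the start, and Psmb10 holds the only E-box.

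Between 13469262 and 28288923 read pairs per library were assigned to genes (median 19951421). All 7 macrophage markers were present in every group. Their summed levels were 15764 to 19199 CPM (read pairs scaled to the size of the library) in WT and 11243 to 19961 CPM in KO libraries. Group medians were 16282 to 18140 CPM in WT and 12062 to 12705 CPM in KO cells. Lyz2, the lysozyme M (LysM) gene of the Cre line, ranged over 5917 to 15062 CPM (median 9641) over all libraries. The sums rest largely on it and do not measure a macrophage share that can be compared between genotypes. The source of the lower KO sums was not tested. Bmal1 (Arntl) was at 7.28 to 12.9 CPM in WT and 2.13 to 10.7 CPM in KO libraries, so the ranges overlapped. A count over the whole gene includes exons that Cre does not remove, and which exons are floxed is not given in the sources used here. KO replicate 6 stood apart in each of its 4 treatments: its median correlation with its group mates was 0.902 to 0.937, and that of every other library at least 0.967. Its summed level of 6 neutrophil markers was 891 to 975 CPM, the highest in each KO group, against 265 to 436 CPM in WT, although Ly6g, a defining neutrophil marker, was at most 0.58 CPM in any library. Summed fibroblast markers, each at 1 CPM or more in every group, ranged from 294 to 1649 CPM over all libraries. Dendritic cell markers summed to at most 7.19 CPM, B cell markers to at most 10.1 CPM, erythroid markers to at most 11.6 CPM and T and NK cell markers to at most 3.27 CPM, each of these maxima in KO replicate 6, which was also the highest KO library for the B cell, erythroid and T and NK cell sums in all 4 treatments. The part of these cells, or of their RNA, in the levels below was not tested, and in bulk libraries fewer cells of a type and less RNA per cell cannot be told apart. The counts of members called in KO cells are therefore given with and without replicate 6.

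In WT vehicle cells the light chain and the heavy chains were by far the most abundant members. Genes were compared per kilobase of the gene length in the count table. That length may exceed that of the transcripts expressed, and the order of genes depends on it. B2m was at 1576 CPM per kb, H2-D1 at 920.5, H2-K1 at 313, Tapbp at 72.1, Psmb10 at 34.5, Psmb8 at 25.5 and Tap2 at 11.95 (means of 3 libraries). Tap1 (7.55 CPM per kb) and Psmb9 (7.19) followed and overlapped in their ranges, and Nlrc5 was lowest at 3.18. After LPS the order of the first 6 was the same, with B2m at 3855 CPM per kb and Psmb8 at 149, while Tap1 (133) had passed Tap2 (92.2). Psmb9 (44.8) and Nlrc5 (43.6) then overlapped, and all other neighbours in both orders were separate. The distance from B2m to Nlrc5 was thus smaller under LPS, since the least abundant members had the larger fold changes.

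**Figure D2:**
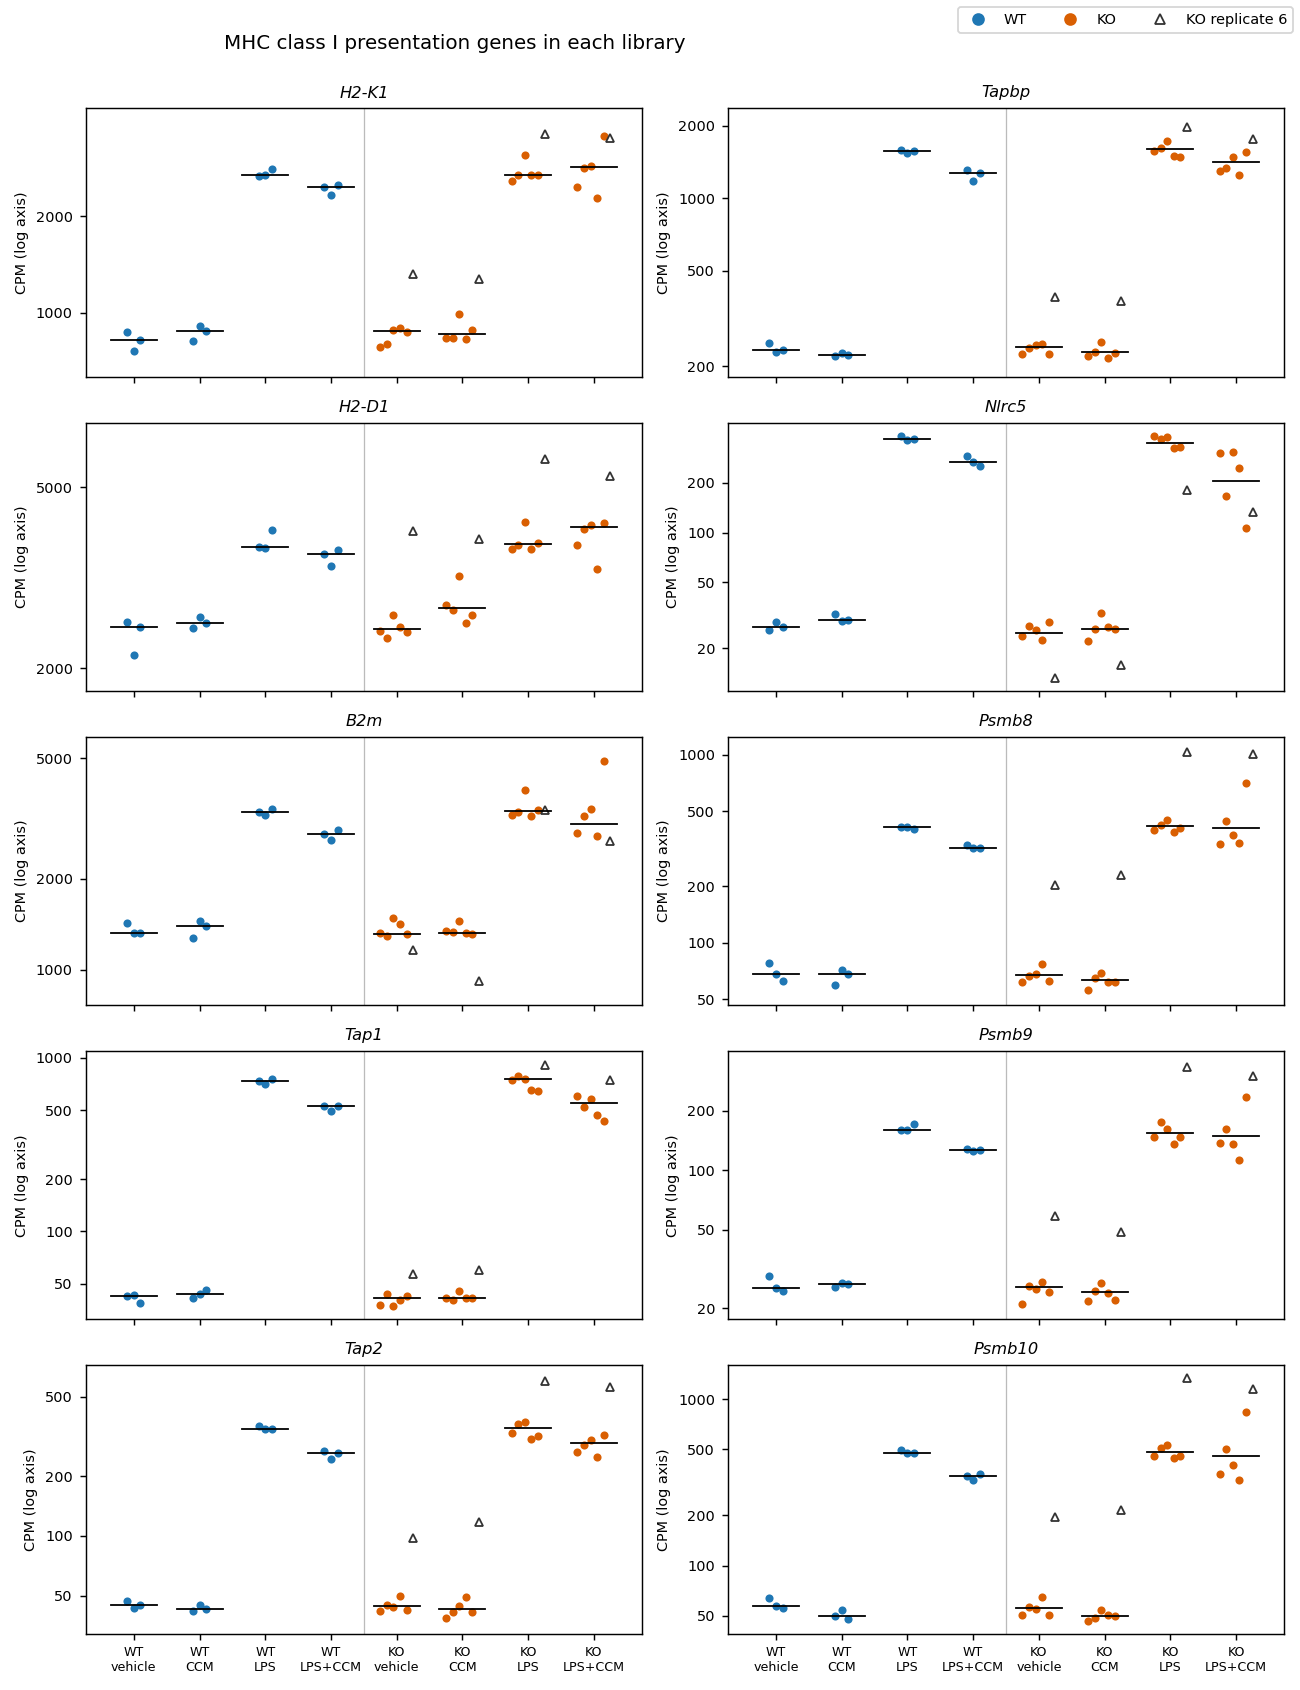
Level of each of the 10 genes in CPM (log axis) in every library, by genotype and treatment; each point is 1 library, open triangles are KO replicate 6, and the bar is the group median. All 10 genes are higher in LPS than in vehicle libraries of WT cells, and the highest KO point of Psmb8, Psmb9 and Psmb10 in vehicle, CCM and LPS cells is replicate 6.

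LPS raised all 10 genes in WT macrophages. Among all genes tested, 30.6% were called higher and 32.4% lower, and the groups of 3 did not overlap, with LPS above, for 32.9% of genes and for 10 of the 10 members. The median log2 fold change of the members was 2.68, beside -0.05 over all genes. Tap1 and the transactivator Nlrc5 changed most. Tap1 was at 42.6, 42.7 and 38.8 CPM in the vehicle libraries and at 732, 707 and 752 CPM in the LPS libraries, a 17.7-fold rise (log2 fold change 4.15, SE 0.066, adjusted p = 2.83e-11, edgeR). Nlrc5 was at 25.7, 28.7 and 26.7 CPM without and 385, 361 and 366 CPM with LPS, a 13.8-fold rise (log2 fold change 3.78, SE 0.067, adjusted p = 4.34e-11). In both genes the LPS libraries lay far above the vehicle libraries. Tap2, the partner of Tap1, was at 47.1, 43.4 and 45.1 CPM in vehicle and 356, 344 and 346 CPM in LPS libraries (log2 fold change 2.95, SE 0.058, adjusted p = 7.15e-11). Tapbp was at 249.5, 229.8 and 234 CPM and then 1585, 1544 and 1565 CPM (log2 fold change 2.72, SE 0.059, adjusted p = 1.27e-10). Tap1 and Tap2 serve in the same transporter, but their rises were 17.7-fold and 7.74-fold.

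The inducible proteasome subunits rose to a similar extent in WT cells. Psmb10 was at 63.5, 57.3 and 55.4 CPM in vehicle and 491, 474 and 472 CPM in LPS libraries (log2 fold change 3.03, SE 0.066, adjusted p = 1.31e-10). Psmb8 was at 78.0, 68.2 and 62.7 CPM and 412, 413 and 400.2 CPM in the same order (log2 fold change 2.56, SE 0.078, adjusted p = 1.49e-09), and Psmb9 at 29.0, 25.4 and 24.5 CPM and 159, 160.4 and 172 CPM (log2 fold change 2.65, SE 0.076, adjusted p = 9.53e-10). In each of the 3 genes every LPS library lay far above every vehicle library. The chains of the class I molecule itself, which were already abundant, rose least. H2-K1 was at 869, 756 and 823 CPM without and 2667, 2688 and 2805 CPM with LPS (log2 fold change 1.74, SE 0.068, adjusted p = 8.72e-09). B2m was at 1429, 1319 and 1318 CPM and 3311, 3243 and 3393 CPM (log2 fold change 1.30, SE 0.060, adjusted p = 3.08e-08). H2-D1 had the smallest change, from 2522, 2138 and 2462 CPM to 3702, 3681 and 4020.3 CPM (log2 fold change 0.68, SE 0.078, adjusted p = 2.98e-05), so the 2 heavy chains differed in fold although both were separate from vehicle in every library. With total counts alone as the scale, the median of all genes in WT cells moved from -0.05 to -0.47 and the calls from 4441 higher of 9139 to 2551 higher of 10611, and 10 of 10 members were still called higher, with a median of 2.27.

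**Figure D3:**
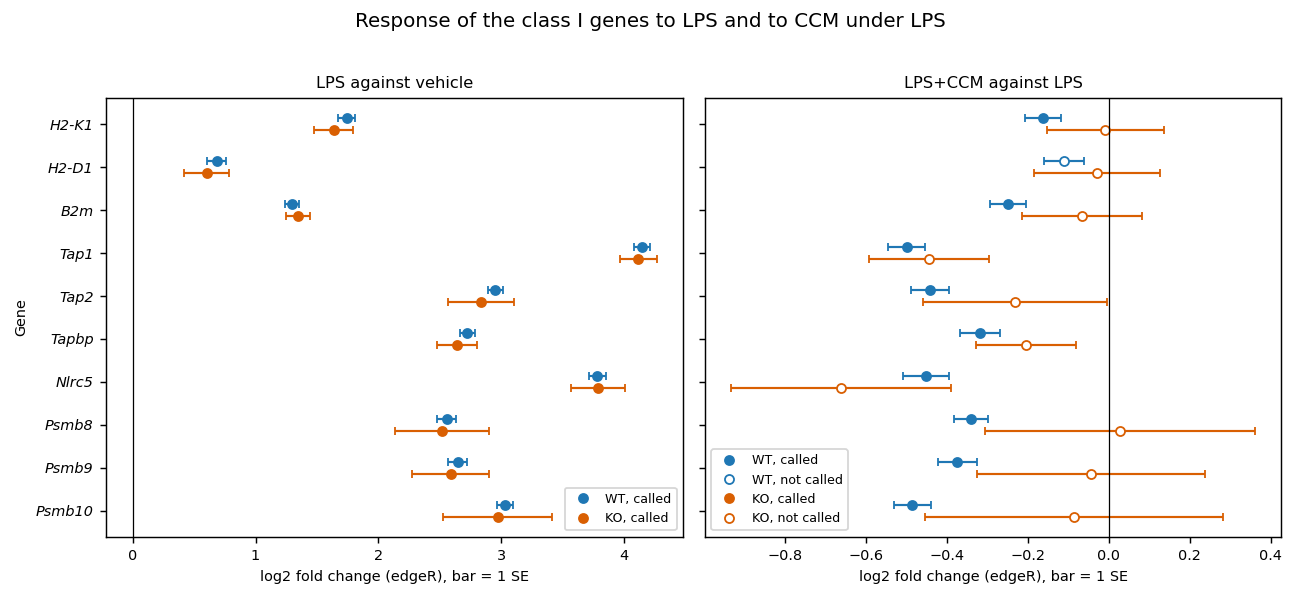
Log2 fold changes of the 10 genes with their standard errors (edgeR), for LPS against vehicle and for LPS+CCM against LPS, in WT and KO macrophages; the zero line is marked. The LPS changes run from 0.68 (H2-D1) to 4.15 (Tap1) in WT cells, and under LPS the WT values with CCM lie between -0.50 (Tap1) and -0.11 (H2-D1).

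KO macrophages showed the rise under LPS as well, in 10 of 10 genes, beside 22.4% of all genes called higher and 24.7% lower. The median of the members was 2.62 (-0.05 over all genes), and groups of 6 that did not overlap, with LPS above, were found for 9 of 10 members and 15.7% of all genes. Tap1 ranged over 37.2 to 56.5 (median 41.5) CPM in vehicle and 646 to 913 (median 751) CPM in LPS libraries (log2 fold change 4.11, SE 0.15, adjusted p = 2.06e-10). Nlrc5 ranged over 13.2 to 28.6 (median 24.7) CPM and 181 to 386 (median 349.7) CPM (log2 fold change 3.79, SE 0.22, adjusted p = 1.17e-08), with replicate 6 the lowest library of both groups. Psmb10 ranged over 50.1 to 197 (median 55.7) CPM and 442 to 1331 (median 484) CPM (log2 fold change 2.97, SE 0.44, adjusted p = 9.28e-05), with replicate 6 the highest of both. The standard errors of the inducible subunits were thus several times those in WT cells. Psmb8 (log2 fold change 2.52, SE 0.38), Psmb9 (2.59, SE 0.31), Tap2 (2.83, SE 0.27), Tapbp (2.64, SE 0.16), H2-K1 (1.64, SE 0.16) and B2m (1.34, SE 0.097) were each higher in 6 of 6 same-numbered libraries. The weakest of the 10 was again H2-D1, at 2335 to 4013 (median 2439) CPM in vehicle and 3659 to 5780.4 (median 3755) CPM in LPS libraries (log2 fold change 0.60, SE 0.18, adjusted p = 0.0144). The H2-D1 groups overlapped, because the vehicle library of replicate 6 exceeded several LPS libraries. Same-numbered KO libraries deviated together here, and paired in a replicate block 10 of 10 members were called beside 9774 of 13648 genes, in place of 6433. Without replicate 6, 10 of 10 members were called beside 9612 of 13844 genes, at 0.62 for H2-D1, 3.09 for Psmb10 and 4.14 for Tap1. With total counts alone as the scale, H2-D1 lost its call (log2 fold change 0.22, adjusted p = 0.0985) while the calls over all genes went from 3060 higher of 6433 to 1825 higher of 7533 and their median to -0.44.

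Whether the LPS response depended on genotype was tested as an interaction. None of the 10 genes was called, nor was any gene of the table (0% of genes in edgeR; 112 genes and 0 members had an unadjusted p under 0.05). The differences between the LPS responses, KO minus WT, ran from -0.10 (Tap2, SE 0.37) to 0.07 (B2m, SE 0.13), and that of Tap1 was -0.01 (SE 0.19). For the inducible subunits the SE was 0.44 to 0.61, so differences of that size were not detectable. Without KO replicate 6, 0 of 10 members and 0 of 14985 genes were called, with values from -0.06 (H2-D1) to 0.07 (Psmb10, SE 0.12).

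The transcripts of the catalytic subunits were compared as the ratio of each inducible subunit to the constitutive one it replaces, per kilobase within a library. This ratio does not depend on how libraries are scaled. Its absolute level depends on the gene lengths in the count table, while its change between groups does not. Protein and the exchange of subunits in the proteasome were not measured. In WT cells the ratio of Psmb8 to Psmb5 was 0.233 to 0.253 in vehicle and 0.833 to 0.863 in LPS libraries. The ratio of Psmb9 to Psmb6 was 0.0914 to 0.0980 and then 0.236 to 0.270. Psmb10 exceeded Psmb7 already in vehicle, at 2.28 to 2.41, and was 10.79 to 10.85 times as abundant per kilobase with LPS. Psmb5, Psmb6 and Psmb7 were themselves called higher under LPS in WT cells (log2 fold changes 0.75, 1.22 and 0.82), so each ratio rose by less than its inducible subunit. The log2 differences were 1.81 (Psmb8 to Psmb5), 1.43 (Psmb9 to Psmb6) and 2.21 (Psmb10 to Psmb7), each with an exact two-sided permutation p of 0.1, the smallest that 3 against 3 libraries allow (adjusted p = 0.12 over 12 tests). In KO cells the differences were 1.79, 1.37 and 2.18 in the same order, with no overlap between the groups of 6 (exact permutation p = 0.0022, the smallest possible, adjusted p = 0.0087). Same-numbered KO libraries deviated together between vehicle and LPS, and paired by number in a replicate block the exact sign-flip permutation p was 0.0312, the smallest for 6 pairs, which adjusts to 0.075. Without replicate 6 the differences were 1.81, 1.36 and 2.18 (exact permutation p = 0.00794, adjusted p = 0.0238). KO replicate 6 had the highest Psmb10 to Psmb7 ratio under LPS, 25.9 beside a median of 10.3, and the lowest Psmb9 to Psmb6 ratio, 0.154 beside a median of 0.239.

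**Figure D4:**
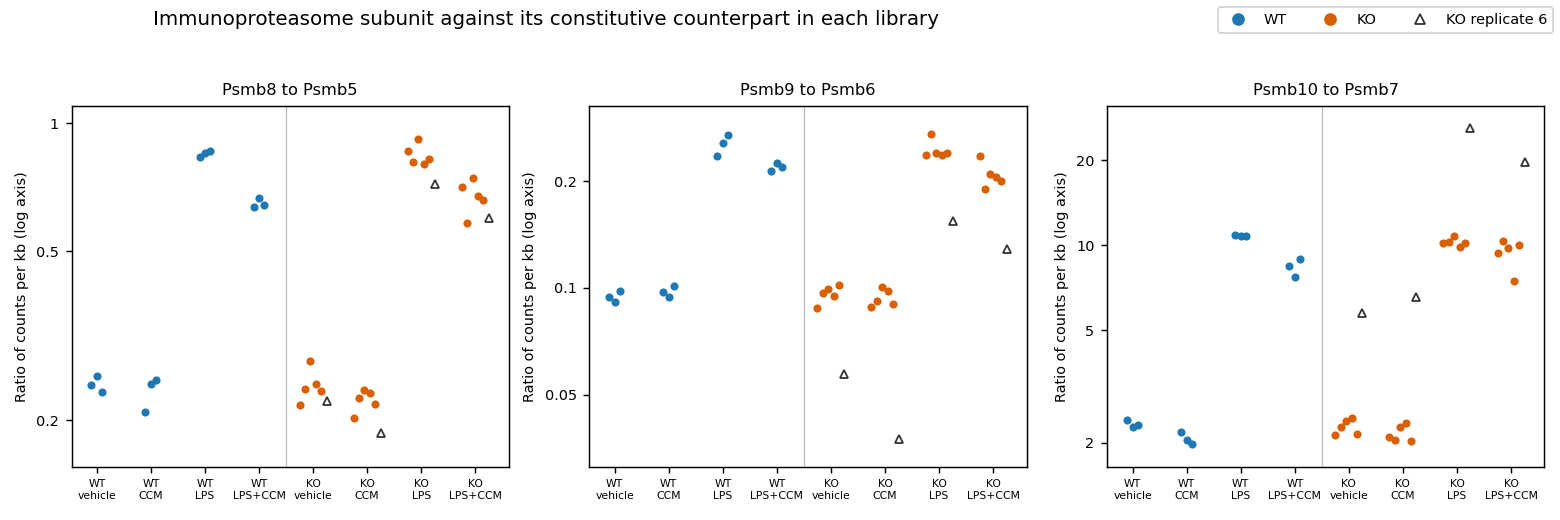
Ratio of each inducible subunit to its constitutive counterpart, per kilobase of gene length (log axis), in every library by genotype and treatment; each point is 1 library, and open triangles are KO replicate 6. All WT and KO LPS libraries lie above the vehicle libraries of their genotype in the 3 ratios, and the WT LPS+CCM libraries lie below the WT LPS libraries, for example at 0.634 to 0.669 against 0.833 to 0.863 for Psmb8 to Psmb5.

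Without LPS, CCM left no member past the threshold in either genotype. In WT cells 0 of 10 were called (edgeR; 0.057% of all genes, 8 of 14024), with 1 member and 1404 genes at an unadjusted p under 0.05. That member was Psmb10, at 49.8, 53.9 and 47.5 CPM with CCM against 63.5, 57.3 and 55.4 CPM in vehicle (log2 fold change -0.24, SE 0.072, adjusted p = 0.306). It lay lower in 3 of 3 same-numbered libraries. Tapbp (-0.11, SE 0.052, adjusted p = 0.546, edgeR) and Nlrc5 (0.15, SE 0.073, adjusted p = 0.542) differed in opposite directions and were not called. The median of the members was -0.004, beside -0.009 over all genes. In KO cells 0 of 10 members and 0% of genes were called (0 members and 333 genes at an unadjusted p under 0.05), with log2 fold changes from -0.11 (Psmb9, SE 0.29) to 0.12 (H2-D1, SE 0.17). Tap1 was at 40.4 to 59.6 (median 41.5) CPM with CCM there and Nlrc5 at 15.8 to 32.7 (median 26.1) CPM, both overlapping their vehicle ranges, and without replicate 6 there were again 0 members called, beside 141 of 13899 genes. Paired in a replicate block by their numbers, these KO libraries gave 429 of 13799 genes called and still 0 members.

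Under LPS, CCM lowered 9 of the 10 genes in WT macrophages. Of all genes, 4.15% were called higher and 7.78% lower. For 10 of 10 members every LPS+CCM library lay below every LPS library, which was so for 15.3% of genes. The median of the members was -0.36, beside 0.01 over all genes, and by replicate number it was -0.32, -0.39 and -0.37. Tap1 fell most. It was at 527, 493 and 529 CPM with LPS+CCM against 732, 707 and 752 CPM with LPS (log2 fold change -0.50, SE 0.046, adjusted p = 0.000112), a level still far above that of the vehicle libraries. Tap2 was at 266, 243 and 261 CPM against 356, 344 and 346 CPM (log2 fold change -0.44, SE 0.047, adjusted p = 0.000223). The tapasin gene Tapbp was at 1311, 1177 and 1275 CPM against 1585, 1544 and 1565 CPM (log2 fold change -0.32, SE 0.048, adjusted p = 0.00197). Tap1, Tap2 and Tapbp were thus lower in each of the 3 libraries. The transactivator Nlrc5 was at 292, 267 and 254 CPM against 385, 361 and 366 CPM (log2 fold change -0.45, SE 0.057, adjusted p = 0.000606).

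Of the inducible subunits, Psmb10 fell most, to 344, 326 and 356 CPM from 491, 474 and 472 CPM (log2 fold change -0.48, SE 0.046, adjusted p = 0.00013). Psmb9 was at 128, 125 and 127 CPM against 159, 160.4 and 172 CPM (log2 fold change -0.37, SE 0.048, adjusted p = 0.000706), and Psmb8 at 331, 317 and 318 CPM against 412, 413 and 400.2 CPM (log2 fold change -0.34, SE 0.041, adjusted p = 0.000488). Their constitutive counterparts were not called: Psmb5 differed by 0.05, Psmb6 by -0.16 and Psmb7 by -0.11 (adjusted p = 0.615, 0.0602 and 0.181). The ratios accordingly were lower with CCM, by -0.39 for Psmb8 to Psmb5, -0.21 for Psmb9 to Psmb6 and -0.37 for Psmb10 to Psmb7 on the log2 scale, with no overlap, at an exact permutation p of 0.1 that 3 against 3 cannot improve on. The class I chains changed least, as under LPS itself. B2m was at 2807, 2673 and 2886 CPM against 3311, 3243 and 3393 CPM (log2 fold change -0.25, SE 0.044, adjusted p = 0.00513) and H2-K1 at 2463, 2324 and 2503 CPM against 2667, 2688 and 2805 CPM (log2 fold change -0.16, SE 0.045, adjusted p = 0.042). H2-D1, at 3557, 3361 and 3638 CPM against 3702, 3681 and 4020.3 CPM, did not pass (log2 fold change -0.11, SE 0.050, adjusted p = 0.2). Same-numbered libraries deviated together here. Paired in a replicate block, 10 of 10 members were called, H2-D1 included (adjusted p = 0.00388), beside 13.3% of all genes called lower.

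The calls of this comparison depended on the estimate of spread and on the scale. In 1 fit of all 36 libraries, whose spread is estimated over the KO libraries too, 0 of 10 members were called at near-identical log2 fold changes (Tap1 -0.50, adjusted p = 0.414). H2-K1 lost its call with any 1 of the 6 libraries left out (8 of 10 members called each time) and with total counts alone (-0.08, adjusted p = 0.233), a scale on which 1539 of 2272 called genes were higher, against 564 of 1621.

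**Figure D5:**
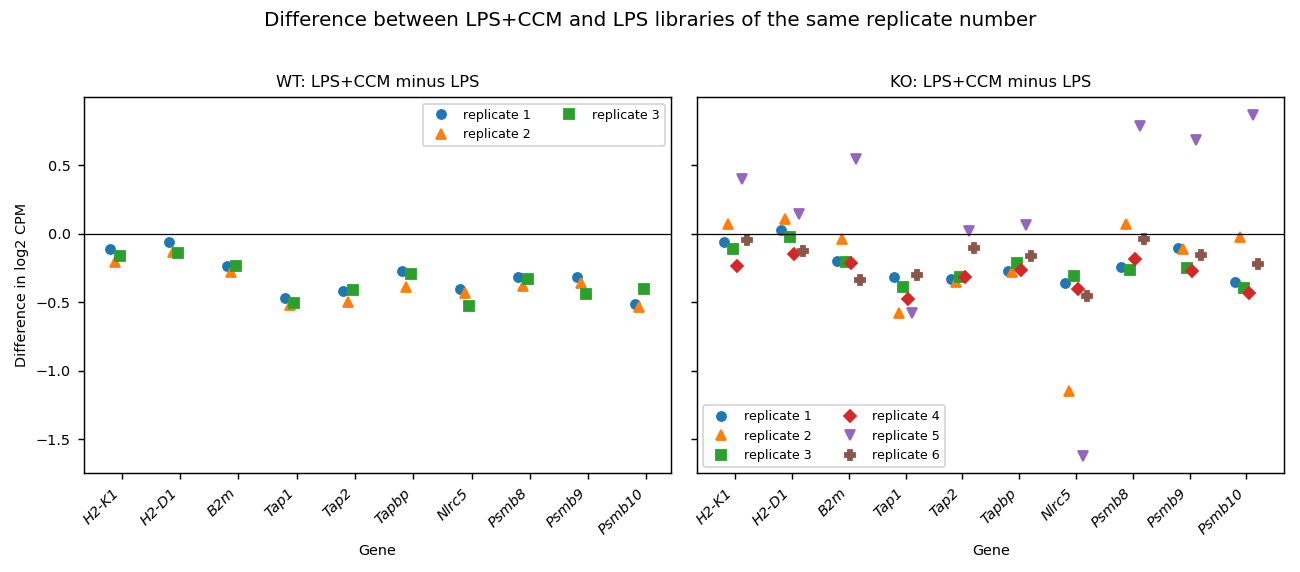
Log2 difference between the LPS+CCM and the LPS library of the same replicate number for each of the 10 genes, in WT (3 numbers) and KO (6 numbers) macrophages; each point is 1 replicate number. All 30 WT points lie below zero, and KO replicate 5 has 8 of 10 genes above zero, with Nlrc5 at -1.62.

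Whether CCM acted differently with LPS present was tested as an interaction in the 12 WT libraries. Tap1 (log2 fold change -0.58, SE 0.079, adjusted p = 0.00316), Nlrc5 (log2 fold change -0.62, SE 0.092, adjusted p = 0.00468), Tap2 (log2 fold change -0.37, SE 0.074, adjusted p = 0.019) and Psmb9 (log2 fold change -0.37, SE 0.089, adjusted p = 0.0461) passed, 4 of 10 members beside 1.62% of all genes called lower in edgeR. For these genes the effect of CCM was thus more negative with LPS than without it. The other 6 had values between -0.27 (Psmb8) and -0.20 (H2-D1), and 10 of 10 had an unadjusted p under 0.05. DESeq2 called 8 of 10 members, beside 8.84% of the 7875 genes to which it gave an adjusted p. The edgeR call rested on single replicates: without WT replicate 1 the test called 5 members and 174 of 14815 genes, and without replicate 2 or replicate 3 it called 0 members, beside 0 of 14892 and 8 of 14684 genes, with Tap1 at -0.60 (adjusted p = 0.156) and -0.49 (adjusted p = 0.0876). Total counts alone, which moved the median of all genes from 0.02 to 0.11 and the calls from 69 higher of 308 to 230 higher of 347, left 2 members called.

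In KO macrophages under LPS, CCM moved no member past the threshold (0 of 10; 0.112% of all genes, 15 of 13386, in edgeR), and 2 members and 1070 genes had an unadjusted p under 0.05. These 2 were Tap1 and Nlrc5. Tap1 was at 434 to 743 (median 549) CPM with LPS+CCM against 646 to 913 (median 751) CPM with LPS, lower in 6 of 6 same-numbered libraries (log2 fold change -0.44, SE 0.15, adjusted p = 0.376). Nlrc5 was at 107 to 305 (median 206) CPM against 181 to 386 (median 349.7) CPM, also lower in 6 of 6 (log2 fold change -0.66, SE 0.27, adjusted p = 0.529). Both groups overlapped for both genes. Paired in a replicate block (edgeR), these 2 members were called, beside 777 of 13386 genes. Deviations of same-numbered libraries correlated here at a median of 0.547, though not in every pair (lowest -0.098). Tap2 (-0.23, SE 0.23) and Tapbp (-0.20, SE 0.12) had smaller negative values, and the remaining 6 lay between -0.09 (Psmb10, SE 0.37) and 0.03 (Psmb8, SE 0.33). The median of the members was -0.08, beside 0.00 over all genes.

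The KO replicates did not behave alike. In replicates 3, 4 and 6 all 10 genes were lower with CCM, in replicate 1 it was 9 and in replicate 2 it was 7, with Nlrc5 at -1.15. In replicate 5, 8 of 10 were higher, led by Psmb10 (0.87), Psmb8 (0.78), Psmb9 (0.69), B2m (0.54) and H2-K1 (0.40), while Nlrc5 was at -1.62 and Tap1 at -0.58. The LPS+CCM library of replicate 5 had a median correlation of 0.967 with its group mates, the lowest outside replicate 6. Without replicate 6, 0 of 10 members and 170 of 13429 genes were called, the median of the members was 0.01, Tap1 was at -0.46 (adjusted p = 0.059) and Nlrc5 at -0.67 (adjusted p = 0.187). Without replicates 5 and 6, a choice made after these values were seen, 0 of 10 members and 171 of 13468 genes were called, the median of the members was -0.21, Tap1 was at -0.43 (adjusted p = 0.0535) and Psmb10 at -0.28. The ratio of Psmb8 to Psmb5 was lower with CCM in KO cells, at 0.582 to 0.742 against 0.718 to 0.917 (log2 difference -0.32, exact permutation p = 0.0043, adjusted p = 0.013), in 6 of 6 same-numbered libraries. Those of Psmb9 to Psmb6 (-0.24, exact permutation p = 0.199) and Psmb10 to Psmb7 (-0.18, exact permutation p = 0.474) did not pass. They were higher with CCM in 0 of 6 and 1 of 6 same-numbered libraries, in the same order. Without replicate 6 that of Psmb8 to Psmb5 was -0.33 (exact permutation p = 0.00794, adjusted p = 0.0238), and that of Psmb9 to Psmb6 did pass (-0.24, exact permutation p = 0.00794, adjusted p = 0.019). The interaction of LPS and CCM in KO cells called 0 of 10 members (0.00685% of genes, 1 of 14588; 2 members at an unadjusted p under 0.05), with Tap1 at -0.50 (SE 0.20) and Nlrc5 at -0.73 (SE 0.34). The other 8 lay between -0.27 (Tap2) and 0.09 (Psmb9). Without replicate 6, 0 of 10 members and 10 of 14609 genes were called, with Tap1 at -0.52 (adjusted p = 0.114) and Nlrc5 at -0.74.

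In the fits without a replicate block, CCM passed the threshold in WT and not in KO cells. That does not show that its effect differed, so the difference itself was tested as a genotype by CCM interaction in the 18 LPS-treated libraries. It called 0 of 10 members and 0% of genes in edgeR (0 members and 72 genes at an unadjusted p under 0.05). The differences, KO minus WT, ran from -0.19 (Nlrc5, SE 0.40) to 0.42 (Psmb10, SE 0.56), with 0.07 for Tap1 (SE 0.21) and 0.20 for B2m (SE 0.22). The median of the 10 was 0.19, beside 0.00 over all genes. Without KO replicate 6 it was 0.20, with 0 of 10 members and 0 of 14401 genes called, Psmb8 at 0.44 (SE 0.26) and Psmb10 at 0.51 (SE 0.31), and without KO replicates 5 and 6 it was 0.10. With all replicates, the SE exceeded the whole CCM effect in WT cells for Psmb8 (0.50), Psmb9 (0.42), Psmb10 (0.56), H2-K1 (0.21) and H2-D1 (0.23). A loss of that effect was not detectable for these genes. For B2m, Tap2, Tapbp and Nlrc5 the SE was 0.18 to 0.40 beside WT effects of -0.25 to -0.45, so a loss could be missed there too.

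Genotype by itself called no member. In vehicle cells KO against WT gave 0 of 10 members and 0% of genes (0 members and 118 genes at an unadjusted p under 0.05), and in LPS cells again 0 of 10 and 0% (0 members and 105 genes). The largest values were those of Psmb10, 0.45 in vehicle (SE 0.46) and 0.38 with LPS (SE 0.35), and of Psmb8, 0.39 (SE 0.40) and 0.34 (SE 0.32). Nlrc5 had the lowest value of the members in both, -0.19 in vehicle (SE 0.20) and -0.18 with LPS (SE 0.20). These values depended on replicate 6. Without it 0 members were called, Psmb10 was at -0.08 in vehicle and -0.00057 with LPS, and Nlrc5 was at -0.08 and -0.05. In that replicate Psmb10 was at 197 CPM in vehicle, where the highest other KO library had 65.0 CPM, and Nlrc5 at 13.2 CPM, where the lowest other had 22.4 CPM.

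The pathway around these genes was described with 70 further genes, of which 67 are in the table. Over all genes tested, LPS called 30.6% higher and 32.4% lower in WT cells, and 22.4% higher and 24.7% lower in KO cells. Under LPS in WT cells, 12 of the 13 other class I heavy chains that could be tested were called higher and 0 lower (5 more were under the filter), and in KO cells 11 of 12. The largest were the H2-M2 gene (log2 fold change 7.32 in WT and 6.73 in KO), H2-Q7 (4.18 and 4.18) and H2-Q6 (4.06 and 4.04). H2-Q6 and H2-Q7 are near-identical copies, and their counts share the uncertainty of the H2 genes. Of 4 class I-like chains tested, 1 was called higher in both genotypes (Cd1d1, which presents lipids, 1.21 and 1.08) and 3 lower. The lowered ones were Mr1, which presents microbial metabolites (-2.13 and -2.12), Hfe, a regulator of iron uptake (-1.71 and -1.60), and Fcgrt, the neonatal Fc receptor chain (-1.09 and -0.96). In WT cells 5 of 5 proteasome activators and assembly factors, 3 of 3 constitutive catalytic subunits and 11 of 11 structural 20S subunits were called higher, with list medians of 1.12, 0.82 and 0.88, below the median of 2.68 for the members. In KO cells it was 4 of 5, 1 of 3 and 8 of 11. Of 6 genes for loading and trimming, 4 were called higher and 2 lower in WT cells, and of 6 cytosolic peptidases 5 and 1. In KO cells it was 2 and 1 of the former and 3 and 0 of the latter. Among 13 transcriptional regulators 8 were called higher and 2 lower in WT cells, and 6 and 2 in KO cells. Without replicate 6 the KO counts were 12 of 12 other heavy chains, 5 of 5 activators and assembly factors, 3 of 3 constitutive and 11 of 11 structural subunits called higher, 4 higher and 2 lower of the loading and trimming genes, 5 and 1 of the peptidases, 1 and 3 of the class I-like chains, and 7 and 4 of the regulators. Over all genes, 9612 of 13844 were then called, 4509 of them higher.

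CCM alone called 0 genes of these lists in either genotype, beside 0.057% of all genes in WT and 0% in KO cells. Without KO replicate 6 it called 1 in KO cells, Psme2, a proteasome activator subunit, as lower, beside 141 of 13899 genes. Under LPS in WT cells CCM lowered 5 of 13 other heavy chains, 2 of 6 genes for loading and trimming, 2 of 6 peptidases, 4 of 5 activators and assembly factors, 4 of 11 structural subunits and 0 of 4 class I-like chains. Over all genes, 7.78% were called lower and 4.15% higher. Of the 13 regulators 4 were called lower and 1 higher. Ciita, the class II counterpart of Nlrc5, was at -1.20 (SE 0.23, adjusted p = 0.00793, edgeR), and Irf1, an interferon regulatory factor that acts on class I genes, at -0.82 (SE 0.097, adjusted p = 4.01e-04). H2-K2, on the list of other class I heavy chains, was at -0.55 (adjusted p = 0.0198), and its count shares the uncertainty of the H2 genes. Nfya, a subunit of the factor that binds CCAAT boxes, was called higher (0.24, adjusted p = 0.0177). Irf1 had a mean of 243 CPM in WT LPS libraries and 137 CPM with LPS+CCM, against 25.4 CPM in vehicle. Its level thus moved in the same directions as the members, and its part in their levels was not tested. In KO cells 0 genes of the lists were called under LPS, with Irf1 at -0.67 (SE 0.19, adjusted p = 0.19) and Ciita at -1.17 (SE 0.32, adjusted p = 0.208), and without replicate 6 again 0 genes, with Irf1 at -0.60 (adjusted p = 0.0642) and Ciita at -1.15 (adjusted p = 0.0924). In the LPS by CCM interaction in WT cells Irf1 (-0.60, adjusted p = 0.031), H2-Q4 (-0.49, adjusted p = 0.0151) and the tapasin relative Tapbpl (-0.49, adjusted p = 0.0287) passed.

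Over all 36 libraries the genes whose log2 CPM was most like the mean of the 10 members, after each was centred and scaled, were Nfkbib (r = 0.998), an inhibitor of NF-kB, Slfn2 (0.997), Pnp (0.997), the heavy chain gene H2-T22 (0.996) and Bcl2a1d (0.996), out of 11186 genes compared. These are correlations across libraries that fall into LPS and non-LPS clusters, so they describe mainly which genes separate the treatments as the members do.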

How the data were processed

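RNA with poly(A) tails from 36 BMDM libraries was sequenced as paired ends. Per the submitters' processing notes and the study's methods, the authors used fastp for trimming, HISAT2 2.0.5 for alignment to mm10, and featureCounts 1.5.0-p3 for counting read pairs on genes. The deposited table used here holds the resulting counts of 54532 genes, which are whole numbers without normalization. The strand setting and the treatment of read pairs with several matches are not given in the sources used here. FPKM values and the authors' own comparisons were not used. Groups were taken from the labels, and 0 count columns were left out.

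Over all genes, the groups of a comparison were fitted alone with edgeR 4.0.16 in R 4.3.3 (filterByExpr, TMM, glmQLFit and glmQLFTest, no replicate block), with two-sided tests and Benjamini-Hochberg adjustment over all genes tested, called at an adjusted p of at most 0.05. CPM were scaled with TMM factors over the 36 libraries, and log2 CPM used a prior count of 2. Gene length for CPM per kb is the column of the count table. Subunit ratios were compared by exact permutation tests over libraries, adjusted over 12 tests. Fold changes of counts with TMM are relative to the bulk of genes. Libraries of a group differed by more than counting noise in all 72 pairs (lowest chi-square over its degrees of freedom 4.34), and precision is therefore limited by the spread between libraries rather than by depth. The fits were run on simulated data with known changes. Those changes were larger than the CCM effects on the members, and the data held no pairing or outlying replicate. The simulation therefore does not measure how well effects of that size are detected.

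Alternatives were DESeq2 1.42.0, RLE size factors, total counts alone, no filter, all 36 libraries in 1 fit, a replicate block, and leaving out each library or replicate number. Leaving out KO replicates 5 and 6 together was added after seeing the data. Same-numbered libraries were taken as paired where their deviations from group means correlated at over 0.1 in every pair, which held for LPS in KO (0.285 to 0.843), CCM in KO (0.323 to 0.859) and LPS+CCM in WT (0.152 to 0.363).

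The members, the pathway lists and the tests were chosen with earlier results of these data known. The rule takes all 10 members in every comparison, some of them given only within a range or count, and per comparison up to 3 raised and 3 lowered genes of the pathway lists, those with the largest change among the called. It also names the constitutive subunits, Ciita and the 5 genes most like the members. Cd1d1, Psme2 and further values of Irf1, outside the comparisons in which this rule named it, were added after they were seen. Start regions are from RefSeq, build GRCm38.p6, and gene positions from GENCODE vM21, build GRCm38, the same assembly as mm10.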

Additional observations from a re-analysis of the deposited data

Results flagged for a closer look

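KO libraries were examined for a library whose gap to its nearest neighbour takes up an unusual share of the range of its group of 6, by Dixon's test, which chance passes in about 1 of 20 groups. The 52 combinations of gene or ratio and KO group share libraries and correlated genes, so they are not independent. Of them, 32 passed, and 30 of these were replicate 6. Its levels were the highest for H2-K1 (gap of 0.781 of the range in vehicle and 0.628 with CCM), H2-D1 (0.831 in vehicle, 0.744 with LPS), Tap1 (0.667 in vehicle, 0.731 with CCM) and Tapbp (0.867 in vehicle, 0.774 with CCM). For Tap2 the gap was 0.857 and 0.863 in vehicle and CCM cells, and 0.769 and 0.763 in LPS and LPS+CCM cells. For the inducible subunits in vehicle, CCM and LPS cells it was 0.896, 0.925 and 0.903 (Psmb8), 0.837, 0.809 and 0.805 (Psmb9) and 0.898, 0.957 and 0.8995 (Psmb10). The same replicate was lowest for B2m with CCM (0.748) and for Nlrc5 with LPS (0.694).

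Replicate 6 also stood apart in 2 of the ratios, which do not depend on scaling. Its ratio of Psmb10 to Psmb7 was highest, with gaps of 0.913 and 0.931 in vehicle and CCM cells, and 0.942 and 0.769 in LPS and LPS+CCM cells. Its ratio of Psmb9 to Psmb6 was lowest, with gaps of 0.682 in vehicle, 0.800 with CCM and 0.7003 with LPS. The ratio of Psmb8 to Psmb5 did not pass in any KO group. The high neutrophil markers of this replicate are given with the results, and their part in these levels was not tested. The other 2 cases concern B2m, highest in replicate 3 with LPS (0.791) and in replicate 5 with LPS+CCM (0.675).

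In WT cells the effect of CCM differed between LPS and unstimulated cells, by the test of the interaction in edgeR, for Tap1 (log2 difference -0.58), Nlrc5 (-0.62), Tap2 (-0.37) and Psmb9 (-0.37). The test called 0 members without WT replicate 2, without replicate 3 and in the fit of all 36 libraries.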

How the results depend on the processing

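Of 161 recounts of the members called, 153 stayed within 1.5 times the reported count. LPS raised 10 of 10 members in WT under every alternative and in KO under all but total counts alone (9). In 1 fit of all 36 libraries CCM under LPS called 0 members in WT, and the LPS by CCM interaction in WT called 0. That interaction called 2 members with total counts alone, 8 with DESeq2 and 0 to 5 with a replicate left out. Over all genes, CCM under LPS in WT gave 1621 calls, 17 in the fit of all libraries, 3220 with the replicate block and 893 to 1352 with a library left out. The replicate block gave 255 calls in place of 8 for CCM in WT, 429 in place of 0 for CCM in KO, 9774 in place of 6433 for LPS in KO, 777 in place of 15 for LPS+CCM in KO and 548 in place of 308 for the WT interaction. For members it called 2 in LPS+CCM against LPS in KO (Tap1 at -0.46, adjusted p = 0.00656, and Nlrc5 at -0.73, adjusted p = 0.037) and 1 in the KO interaction, where same-numbered libraries did not all deviate together (lowest correlations -0.098 and -0.16). Paired in a replicate block, the KO ratios under LPS (1.79, 1.37 and 2.18) and that of Psmb8 to Psmb5 with CCM (-0.32) no longer passed, since 6 pairs cannot give a smaller p. The ratio of Psmb9 to Psmb6 for CCM under LPS in KO passed without replicate 6, and ranged from -0.29 to -0.19 with 1 replicate left out. The block changed no other call of a comparison's members or ratios, apart from H2-D1 in WT, given with the results. The causes of these changes, where not stated, were not tested.

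Values of members that were not called changed sign as follows. For CCM under LPS in KO, H2-K1 was 0.019 with total counts alone, 0.011 in the fit of all libraries, and -0.090 to 0.030 with 1 replicate left out, positive without replicate 1, 3, 4 or 6. H2-D1 was 0.0059 with total counts alone, -0.056 to 0.022 with 1 replicate left out, positive without replicate 6, and 0.00080 without replicates 5 and 6. With 1 replicate left out B2m ranged from -0.21 to 0.0039, Psmb9 from -0.19 to 0.030 and Psmb10 from -0.28 to 0.015, positive without replicate 6, and Psmb8 from -0.12 to 0.089, negative without replicate 5 and at -0.14 without 5 and 6. For KO against WT in vehicle, Psmb10 was -0.13 with the replicate block, -0.080 (without replicate 6) to 0.55 with 1 library left out and -0.050 without replicates 5 and 6. With LPS, Psmb10 was -0.00057 (without replicate 6) to 0.46 with 1 library left out, and Nlrc5 0.020 with the block.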
